A study of Mus musculus with 6 samples.

Results

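The genes described here encode the nuclear subunits of respiratory complex III, of complex IV and of ATP synthase, together with cytochrome c. They were taken from the arrays by name: Uqcr genes, Cyc1, Cycs, Cox4 to Cox8 genes and Atp5 genes, under either the name on the array or the current name. In all, 75 of 55681 gene probes matched, standing for 48 genes. Of these genes, 10 belong to complex III or are cytochrome c, 19 carry names of complex IV and 19 carry names of ATP synthase. Among the 48, 4 share the names without being subunits of these complexes alone: Cox7a2l, a factor of respiratory supercomplexes, Emc8, listed on the array as Cox4nb, and Dmac2l and Dmac2, listed as Atp5s and Atp5sl. The other 44 are subunits or cytochrome c, of which 43 were tested.

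Complex III takes electrons from ubiquinol and hands them to cytochrome c, a small soluble haem protein. Complex IV, cytochrome c oxidase, passes them on to oxygen, and both enzymes pump protons across the inner mitochondrial membrane. ATP synthase lets the protons flow back through a rotating ring of c subunits and couples that rotation to ATP formation in its F1 head. The heart depends on this system for nearly all of its ATP, and its muscle cells carry isoforms of several complex IV subunits that other tissues largely lack.

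RNA came from hearts of male C57BL/6 mice, 8 weeks old, in which the left anterior descending coronary artery had been tied to cause a myocardial infarction, and tissue was taken at day 21. Both groups had the infarction. The antagomir group (3 samples) received 80 mg/kg of an antagomir, an oligonucleotide that blocks a microRNA, against miR-433 through the tail vein on 3 days in a row, and the control group (3 samples) received a scrambled antagomir. No group without infarction or without injection is compared here. Neither the part of the heart nor the use of separate mice is given in the labels, so the p-values measure only the spread between these samples, which may be technical.

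Each sample was read on a 1-colour Agilent array with Cy3 label. Levels are given as the log2 processed signal after subtraction of that array's 75th percentile, so that 0 is the level below which 75% of probes lie, and a difference of 1 is a factor of 2. Between 55.2% and 58.5% of gene spots exceeded background clearly, by the scanner's flag, on 5 arrays, and 73.6% did on antagomir array 3. Genes whose probe carried that flag on 3 or more of the 6 arrays were tested with limma, 22991 in all, and p-values were adjusted by the Benjamini-Hochberg method over all of them. Of the 48 genes, 47 were tested, 46 of them well above background on all 6 arrays. Cox8c, a testis isoform of a complex IV subunit, was not tested, since its probe was well above background on 1 antagomir array and on 0 control arrays.

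The genes lie on 19 chromosomes, with 7 on chromosome 7. These include the 3 muscle isoforms of complex IV subunits, whose probes were placed by the array design at chr7:135349160-135349219 for Cox6a2, chr7:30970337-30970948 for Cox7a1 and chr7:148084852-148084911 for Cox8b (mm9). RefSeq promoter sequences (GRCm38.p6, 250 bases before each start and 50 after it) were found for 36 of the 48 genes, with 40 starts among them. They were searched on both strands for the core motifs of regulators known to act on respiratory chain genes. The NRF1 motif, the 10 bases in capitals in the stretch of Atp5k printed further on, was found in 10% of the 40 promoters and in 0.971% of all 32851 promoters. The motif CCGGAAG, bound by GABP and other ETS factors, stood in 27.5% of them and in 8.86% of all promoters. For YY1 (AAGATGGCG) the shares were 10% and 1.4%. The 10% stands for 4 promoters of 3 genes, among them overlapping starts of Dmac2, which is not a subunit. For oestrogen-related receptors (TCAAGGTCA) the shares were 2.5%, which is 1 promoter, that of Atp5g3, and 0.423%. The SP1 motif GGGCGG was about as frequent among these promoters, at 35%, as among all promoters, at 35.7%. Overlapping matches of different motifs were each counted, starts of the same gene can share bases, and a match describes sequence only.

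Printed next are the 250 bases before the start of 3 genes, 1 of each complex, that carry these motifs, and of the muscle and the ubiquitous isoform of a complex IV subunit, which are compared with each other further on. Capitals mark the motifs, on either strand.
Uqcrh, chr4:116075071-116075320, minus strand, with the ETS motif: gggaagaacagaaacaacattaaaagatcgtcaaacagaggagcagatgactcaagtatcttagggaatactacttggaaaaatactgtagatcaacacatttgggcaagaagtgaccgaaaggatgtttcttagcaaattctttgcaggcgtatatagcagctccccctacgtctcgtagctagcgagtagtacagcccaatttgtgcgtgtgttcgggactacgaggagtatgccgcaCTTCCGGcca
Cox6a1, chr5:115348959-115349208, minus strand, with the NRF1, SP1 and ETS motifs: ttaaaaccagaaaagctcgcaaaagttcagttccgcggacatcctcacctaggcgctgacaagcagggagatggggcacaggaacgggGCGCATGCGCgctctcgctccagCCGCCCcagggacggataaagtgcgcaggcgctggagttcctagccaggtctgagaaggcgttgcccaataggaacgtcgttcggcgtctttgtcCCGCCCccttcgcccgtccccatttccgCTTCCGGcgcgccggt
Atp5k, chr5:108434400-108434649, minus strand, with the NRF1 motif: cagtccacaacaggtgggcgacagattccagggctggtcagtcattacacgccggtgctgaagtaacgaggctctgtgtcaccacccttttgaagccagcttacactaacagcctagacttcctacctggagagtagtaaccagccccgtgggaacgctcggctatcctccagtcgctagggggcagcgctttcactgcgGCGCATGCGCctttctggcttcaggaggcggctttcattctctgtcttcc
Cox7a1, chr7:30183921-30184170, plus strand, muscle isoform: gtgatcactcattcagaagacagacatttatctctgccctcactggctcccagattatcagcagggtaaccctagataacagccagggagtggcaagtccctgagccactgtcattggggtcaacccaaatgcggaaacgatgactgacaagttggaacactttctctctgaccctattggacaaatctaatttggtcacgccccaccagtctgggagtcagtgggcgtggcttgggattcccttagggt
Cox7a2, chr9:79759854-79760103, minus strand, ubiquitous isoform, with the SP1 motif: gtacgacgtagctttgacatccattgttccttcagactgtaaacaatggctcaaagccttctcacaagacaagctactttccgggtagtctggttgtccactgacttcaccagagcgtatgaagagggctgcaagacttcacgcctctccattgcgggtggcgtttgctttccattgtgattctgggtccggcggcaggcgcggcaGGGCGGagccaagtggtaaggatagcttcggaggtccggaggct
The stretch before Cox7a1 holds 0 of the 5 motifs, and the stretch before Cox7a2 holds SP1 alone.

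The comparison of the 2 groups asked whether transcripts of these complexes differed in infarcted hearts after injection of the antagomir against miR-433. All 47 tested genes had higher means in the antagomir group, against 62.6% of all genes tested, but under scaling by the array median 46 of them had lower means and only Cox6b2 a higher one. Their median log2 fold change was 0.30 (1.23-fold), and the median of all genes tested was 0.09. No gene of the 3 complexes passed the adjusted threshold in limma (0 of 47, lowest adjusted p = 0.674, for Cox5a), where 3 of all genes, or 0.013%, did. At an unadjusted p under 0.05, limma called 1 of them higher, Cox5a, against 3.05% of all genes, and 0 of them lower, against 4.16%. The 95% interval of the difference excluded 0 for 1 gene, and for all 47 it took in the median of all genes. The 3 antagomir arrays lay above the 3 control arrays for 25 of the 47, with 8.78% of all genes doing so.

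The size of the difference was alike across the complexes: 38 of the 47 log2 fold changes lay between 0.20 and 0.45. Complex III with cytochrome c had the narrowest range, from 0.29 to 0.37 with a median of 0.34 (10 of 10 higher, -0.13 under scaling by the array median). The genes with complex IV names had a median of 0.28 and ran from 0.07, for Emc8, to 0.80 (18 of 18 higher, -0.19 under that scaling). The 16 tested subunits among them ran from 0.08 to 0.80, also with a median of 0.28. ATP synthase ran from 0.13 to 0.42 with a median of 0.29 (19 of 19 higher, -0.18 under that scaling). Groups did not overlap for 6, 8 and 11 genes of the 3 sets. In the higher direction, they did not for 8.78% of all genes and for 32.0% of those with a mean level of at least 7. Among the 43 subunits and cytochrome c alone the median was 0.31, so the genes caught by name only bore little on it. Of 17 genes with more than 1 tested probe, 0 had probes that differed in sign, and 74 of 74 probes taken singly were higher, against 62.9% of all probes.

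**Figure D1:**
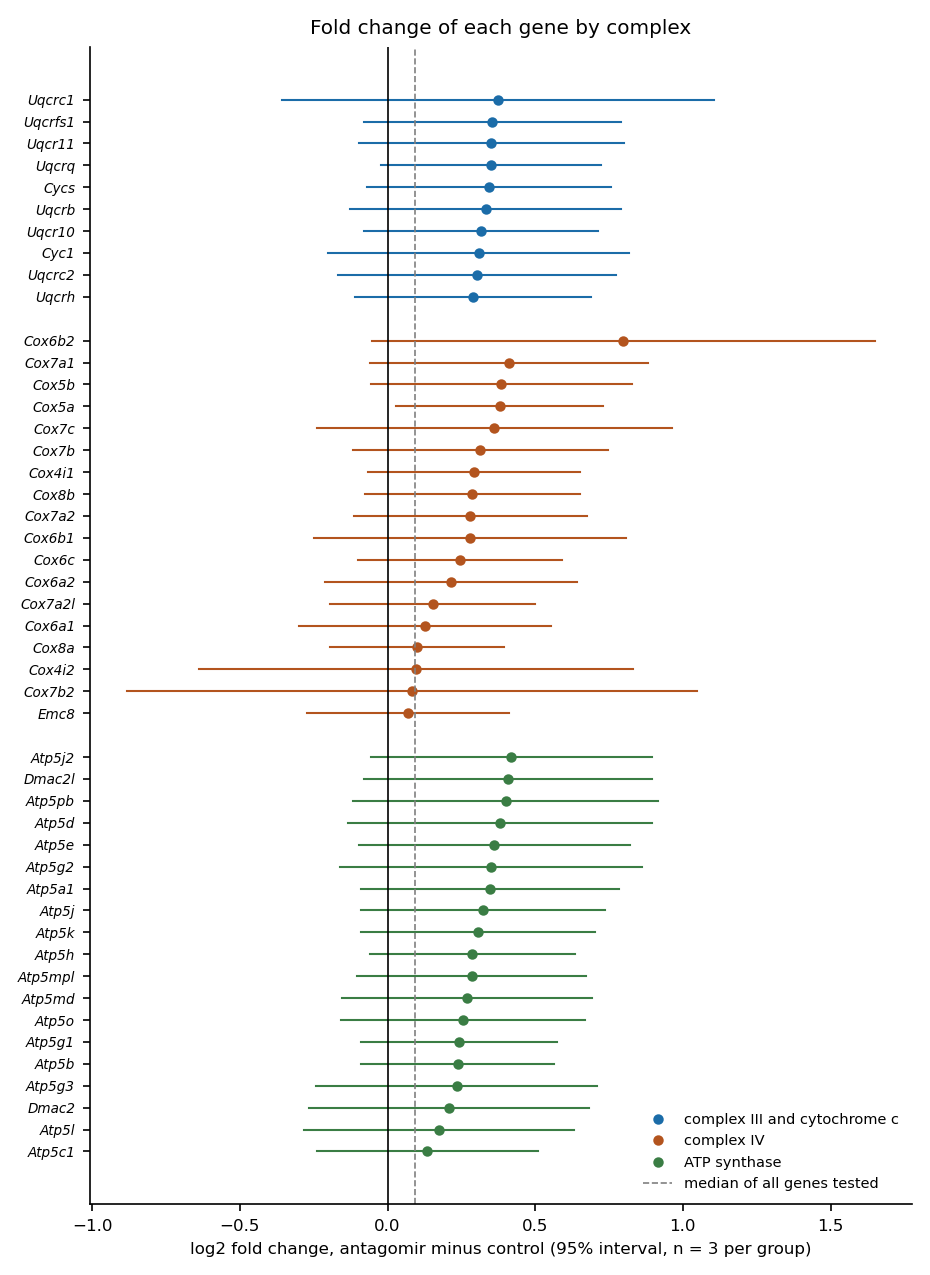
Log2 fold change (antagomir minus control, horizontal axis) of each of the 47 tested genes, grouped by complex, with 95% intervals from limma (n = 3 per group) and the median of all genes tested (0.09) as a dashed line. All points lie right of 0 (46 lie left of it under scaling by the array median), all intervals cross the dashed line, and only that of Cox5a leaves out 0.

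These genes are among the brightest on the arrays: the median of their mean levels was 7.85, where that of all genes tested was -0.03. Bright genes as a whole were higher in the antagomir group as well. Of the 588 genes tested with a mean level of at least 7, 91.5% were higher, with a median log2 fold change of 0.20, and the groups did not overlap in the higher direction for 32.0%. The 38 genes of the 3 complexes at that level had a median of 0.31, and their groups did not overlap for 63.2%.

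How the arrays are scaled to each other set both the sign and the size, since every gene of an array is shifted alike. Scaling by the median moved the median of all genes to -0.38. The mean over all genes tested, relative to the controls, was 0.23 on antagomir array 3 and between -0.03 and 0.03 on the other 5 arrays. Relative to the median of all genes, the median of the 47 genes stood 0.21 higher with either percentile, and 45 of the 47 lay above it. Such a shift cannot change that gap, but the choice of genes can. Without the filter on background, the median of all 36084 genes was 0.26. That of the 48 genes of the 3 complexes stood 0.047 above it, and 33 of the 48 lay above it. With quantile scaling the genes' own median was 0.11 (41 of 47 higher), the median of all genes was -0.03, and 42 of the 47 lay above that. By complex, that scaling gave medians of 0.13 (10 of 10 higher) for complex III with cytochrome c, 0.089 (13 of 18) for complex IV and 0.12 (18 of 19) for ATP synthase. In the authors' deposited table, normalised by a method that the labels do not state, the median was 0.11 (41 of 47 higher) and that of all genes -0.03. These medians are nearly identical to those of quantile scaling, so they are not counted as a separate result.

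Control array 2 stood apart for these genes. It held the lowest value of the 6 arrays for 44 of the 47 genes, where 36.7% of all genes, and 71.9% of those with a mean level of at least 7, had their lowest value there. Relative to each gene's control mean, the 47 genes averaged 0.10, -0.29 and 0.19 on the controls in the order of their numbers, and 0.37, 0.23 and 0.28 on the antagomir arrays. Control array 3 thus lay within 0.04 of antagomir array 2, while control array 2 lay 0.39 below control array 1. Without control array 2 the median log2 fold change was 0.17, with 45 of 47 higher, and the median of all genes was 0.05. The medians of complex III with cytochrome c, complex IV and ATP synthase were then 0.18, 0.13 and 0.18. Without control array 3 the median was 0.41. Against control arrays 1 and 3 alone, the antagomir arrays were all higher for 25 of the 47 genes. They were so for 10.2% of all genes and for 196 of the 588 with a mean level of at least 7. Of the 47, 38 had that level, and the antagomir arrays were all higher for 24 of those.

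**Figure D2:**
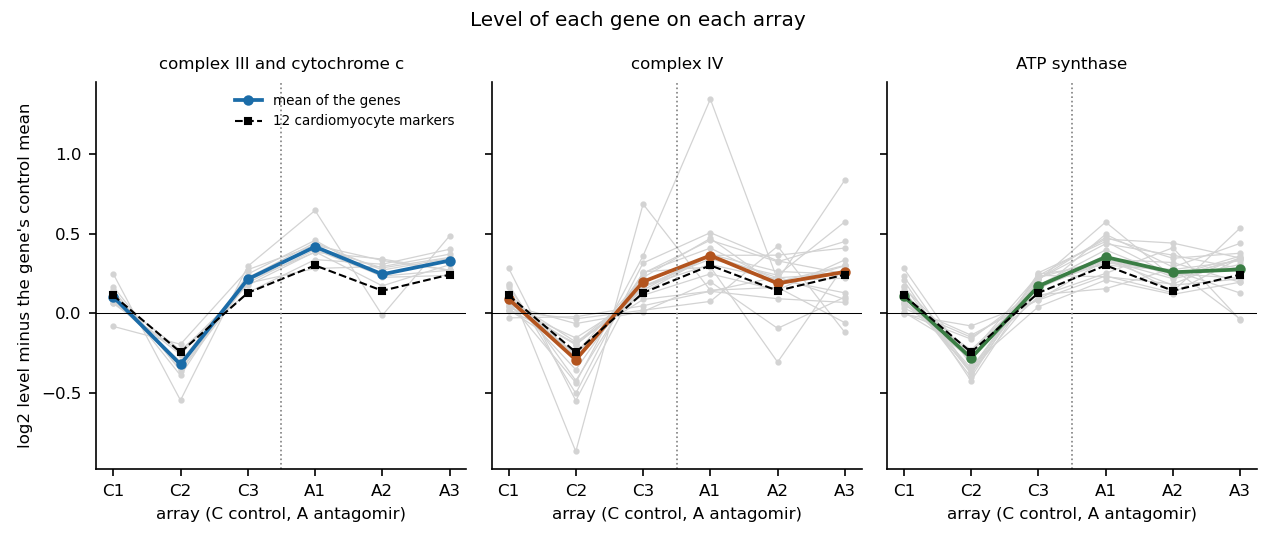
Level of each tested gene on each array minus its mean over the controls (log2, vertical axis), in 3 panels by complex. Grey lines are single genes, coloured lines their mean and black dashed lines the mean of 12 cardiomyocyte markers. Control array 2 (C2) is lowest for 44 of the 47 genes, and the dashed line follows the coloured one from array to array.

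Cardiomyocyte markers, chiefly genes of the contractile apparatus, varied over the arrays much as these genes did. Of 12 such markers, 12 were higher in the antagomir group (median log2 fold change 0.22), and 0 passed the adjusted threshold. Groups did not overlap for 5 of them, as for 8.78% of all genes and 32.0% of those with a mean level of at least 7. Their mean level relative to the control mean was 0.11, -0.24 and 0.13 on the controls and 0.30, 0.14 and 0.24 on the antagomir arrays. After that marker mean was taken off each array, the 47 genes stood at -0.013, -0.049 and 0.062 on the controls and at 0.070, 0.087 and 0.038 on the antagomir arrays, where the groups overlapped. By complex, the groups overlapped for complex IV and ATP synthase. For complex III with cytochrome c they just did not, with -0.0093, -0.077 and 0.086 on the controls and 0.117, 0.103 and 0.088 on the antagomir arrays. With the arrays scaled to these markers, an alternative chosen after the data were seen, 37 of 47 were higher and their median was 0.07. In heart RNA, fewer cells of a type and less RNA per cell cannot be told apart.

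Markers of some other cells differed more. All 8 fibroblast and matrix markers were lower in the antagomir group, with a median log2 fold change of -1.88 and a range from -3.71 for Postn to -0.0016 for Dcn, and groups did not overlap for 5 of them, as in the lower direction for 6.93% of all genes. Averaged relative to the control mean, they stood at -0.11, 0.42 and -0.31 on the controls and at -1.93, -1.32 and -2.19 on the antagomir arrays, so that control array 2 was highest for them. All 4 smooth muscle markers were lower too (median -0.80), and control array 2 was again the highest at 0.65. Macrophage markers were lower for 5 of 6 (median -0.24) and endothelial markers for 4 of 5 (median -0.08). Of the 4 atrial markers, Sln, Myl7 and Myl4 had log2 fold changes of 5.30, 5.14 and 3.10 and Nppa one of -1.71. Their spread was wide, with Sln at -4.01, -2.14 and 0.53 on the controls and -1.46, 5.10 and 6.63 on the antagomir arrays. The 6 tested adipocyte markers averaged -1.63, -0.02 and 1.65 on the controls and 0.92, 2.78 and 2.55 on the antagomir arrays, and Ucp1 and Lep were not tested. Of 4 tested skeletal muscle markers 2 were higher, Pvalb at 1.16 without overlap, as for 8.78% of all genes, and Ckm at 0.36. Acta1 and Tnnt3 were lower, at -1.37 and -0.99, with overlap. Ckm is also counted among the cardiomyocyte markers, and Myh1 and Myh4 were not tested. Both tested erythroid markers varied widely within each group. None of these markers passed the adjusted threshold, and their part in the differences of the respiratory genes was not tested.

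The nuclear subunits of complex III counted here as its core are cytochrome c1, the Rieske iron-sulphur protein and 2 core proteins. Cyc1, which encodes cytochrome c1, had levels of 8.52, 7.99 and 8.62 on the controls and 8.84, 8.60 and 8.62 on the antagomir arrays. The groups overlapped, only antagomir array 1 clearly exceeding control array 3, and the log2 fold change was 0.31 (SE 0.208, limma adjusted p = 0.691). Uqcrfs1, which encodes the Rieske protein, stood at 7.25, 6.87 and 7.40 on the controls and at 7.62, 7.44 and 7.52 on the antagomir arrays. All its antagomir values were above all control values, the nearest by a few hundredths, and the log2 fold change was 0.35 (SE 0.178, limma adjusted p = 0.691). The core proteins Uqcrc1 and Uqcrc2 had log2 fold changes of 0.37 and 0.30, and Uqcrc1 had the largest standard error of complex III (0.299). Its spread was wide in both groups (SD 0.47 in the controls and 0.34 in the antagomir group, n = 3 each), with control array 2 at 6.37 and antagomir array 2 at 6.90.

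The accessory subunits of complex III, which surround the core, lay close to each other. Uqcrq had the smallest p of the complex, with levels of 8.06, 7.73 and 8.09 on the controls and 8.30, 8.27 and 8.36 on the antagomir arrays. Here the antagomir arrays stood together above the controls, by 0.35 (SE 0.152, limma unadjusted p = 0.0609, adjusted p = 0.691). Uqcr10 showed the same order, with 7.76, 7.43 and 7.88 on the controls against 7.98, 7.99 and 8.06, a log2 fold change of 0.32 (SE 0.162). Uqcr11 stood at 8.31, 7.86 and 8.41 on the controls and 8.61, 8.48 and 8.55 on the antagomir arrays, without overlap (0.35, SE 0.183). Uqcrb and Uqcrh followed with 0.33 and 0.29. All 5 accessory subunits were lowest on control array 2.

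Cycs encodes somatic cytochrome c, the carrier between complexes III and IV. Its levels were 8.07, 7.96 and 8.43 on the controls and 8.58, 8.48 and 8.42 on the antagomir arrays. Control array 3 lay among the antagomir arrays, and the other controls lay well under them. The log2 fold change was 0.34 (SE 0.169, limma adjusted p = 0.691), and its 3 probes gave 0.32 to 0.45.

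Complex IV is built on 3 subunits encoded in mitochondrial DNA, with nuclear subunits around them. Among the ubiquitous nuclear subunits, Cox5a, on the matrix side of the enzyme, had the smallest p of all 47 genes. Its levels were 8.86, 8.60 and 8.93 on the controls and 9.16, 9.16 and 9.21 on the antagomir arrays. The antagomir arrays differed little among themselves (SD 0.03, n = 3) and stood above all controls (SD 0.17, n = 3), by a log2 fold change of 0.38 (1.30-fold, SE 0.143, limma unadjusted p = 0.0378, adjusted p = 0.674). Cox4i1, which encodes the main form of subunit 4, had 9.16, 8.91 and 9.26 on the controls and 9.48, 9.37 and 9.35 on the antagomir arrays, again without overlap (0.29, SE 0.147). Cox5b, a zinc-binding subunit, had 8.04, 7.67 and 8.12 on the controls and 8.29, 8.18 and 8.52 on the antagomir arrays, without overlap (0.39, SE 0.181). Without overlap too were Cox6c, Cox7a2 and Cox8a, with log2 fold changes of 0.24, 0.28 and 0.10.

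Some ubiquitous subunits of complex IV stood out by a smaller difference. Cox8a had the smallest standard error of all 47 genes (0.12), with 7.45, 7.46 and 7.52 on the controls and 7.61, 7.57 and 7.54 on the antagomir arrays. Cox6a1 was almost level on the controls, at 8.19, 8.15 and 8.20, and uneven on the antagomir arrays, at 8.26, 8.60 and 8.06, so that the groups overlapped (0.13, SE 0.175). Both were lower, not higher, under quantile scaling (-0.06 for Cox8a and -0.10 for Cox6a1). Cox6b1, Cox7b and Cox7c overlapped between groups, with 0.28, 0.31 and 0.36.

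The muscle isoforms of complex IV, Cox6a2, Cox7a1 and Cox8b, take the place of ubiquitous subunits in heart and skeletal muscle. Cox7a1 had the largest difference of the 3, with 9.49, 9.03 and 9.64 on the controls and 9.85, 9.71 and 9.84 on the antagomir arrays. All antagomir arrays stood above all controls, and the log2 fold change was 0.41 (1.33-fold, SE 0.192, limma unadjusted p = 0.0757, adjusted p = 0.691). Cox8b had 8.61, 8.40 and 8.75 on the controls and 8.95, 8.79 and 8.89 on the antagomir arrays, also without overlap (0.29, SE 0.149). Cox6a2 had 9.56, 9.13 and 9.60 on the controls and 9.74, 9.64 and 9.56 on the antagomir arrays. There antagomir array 3 fell within the range of the controls, the log2 fold change was 0.22 (SE 0.174), and it was -0.04 under quantile scaling.

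The tested isoforms restricted to other tissues had mean levels far below the median of the genes described here (7.85). Of these isoforms, only Cox7b2 had group means below the median of all genes tested (-0.03). Cox6b2, a testis isoform, had the largest difference of all, at 0.12, -0.39 and 0.41 on the controls and 1.39, 0.25 and 0.88 on the antagomir arrays. Antagomir array 2 lay within the controls, and the log2 fold change of 0.80 had a wide interval, from -0.05 to 1.65 (limma adjusted p = 0.691). Cox4i2, known from lung, stood at 1.54, 0.71 and 1.52 on the controls and 1.55, 0.95 and 1.56 on the antagomir arrays, with 1 low array in each group (0.10, SE 0.301). Without control array 2 the value for Cox4i2 was -0.18. Cox7b2, near the dim end at -3.78, -4.83 and -3.28 on the controls and -3.82, -3.80 and -4.02 on the antagomir arrays, overlapped throughout (0.08, SE 0.395), and was -0.82 under quantile scaling and -0.35 without control array 2.

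Isoform pairs were compared within each array, which takes out the scaling by percentile and much of what the arrays share. The difference of the 2 levels was set to 0 for the control mean, and 8 pairs were tested with an exact two-sided permutation test, whose smallest possible p with 3 against 3 is 0.1. Cox7a1 minus Cox7a2 stood at 0.011, -0.098 and 0.088 on the controls and at 0.096, 0.10 and 0.20 on the antagomir arrays. This was the single pair whose antagomir arrays all lay above the controls, by 0.13 on average (SD 0.093 in the controls and 0.059 in the antagomir group, n = 3 each), at the smallest p the exact test allows (p = 0.1, 0.533 adjusted over the 8 pairs). Cox8b minus Cox8a shifted by 0.19, with 1 antagomir array among the controls (exact p = 0.2). Cox6a2 minus Cox6a1 shifted by 0.09 (exact p = 0.5), and by -0.04 without control array 2. Since its smallest p is 0.1, the exact test could not put any pair under 0.05, so only the shifts and their spread are read here.

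The other pairs were compared in the same way. Cox6b2 minus Cox6b1 shifted by 0.52, with antagomir arrays at 0.94, 0.0051 and 0.62 (exact p = 0.2). Cox4i2 minus Cox4i1 shifted by -0.20 (exact p = 0.5), and by 0.08 under quantile scaling. Cox7b2 minus Cox7b shifted by -0.23 (exact p = 0.6). In the c ring, 3 genes encode the same mature subunit, and their use can shift. Atp5g1 minus Atp5g3 moved by 0.0094 (exact p = 1, with SDs of 0.20 and 0.093, n = 3 each), and Atp5g2 minus Atp5g3 by 0.12 (exact p = 0.3).

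**Figure D3:**
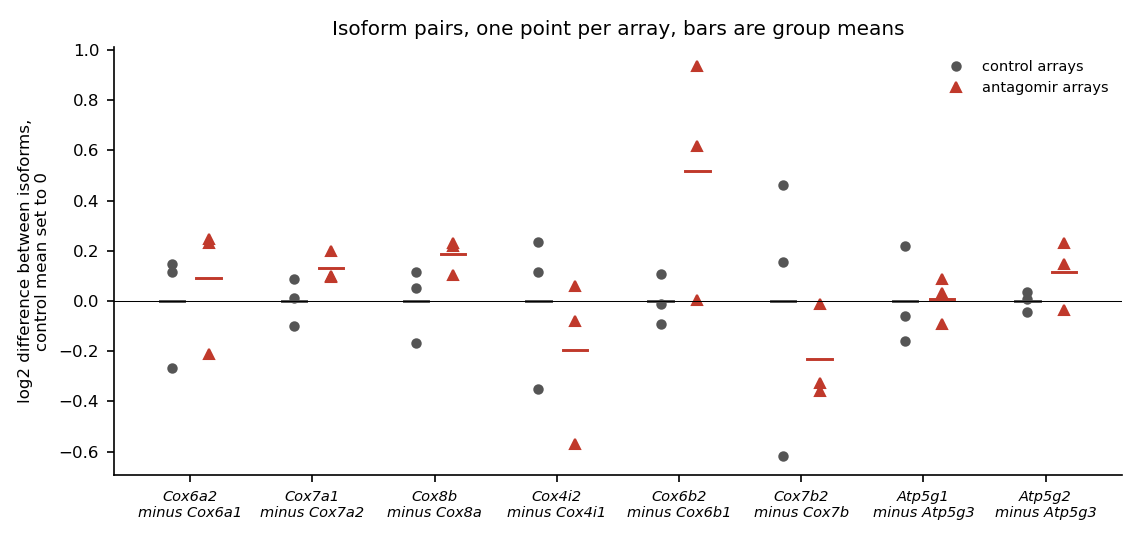
Within-array log2 difference between 2 isoforms, with the control mean of each pair set to 0 (vertical axis), for 8 pairs. Circles are the 3 control arrays, triangles the 3 antagomir arrays and bars group means, and in Cox7a1 minus Cox7a2 alone do all triangles lie above all circles.

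In ATP synthase, the F1 head holds the catalytic sites. Atp5b, which encodes the catalytic beta subunit, had levels of 8.25, 8.17 and 8.33 on the controls and 8.49, 8.38 and 8.60 on the antagomir arrays. The groups did not overlap, the controls were close together, and the log2 fold change was 0.24 (SE 0.134, limma unadjusted p = 0.126, adjusted p = 0.691). With quantile scaling the value for Atp5b was 0.0015, and it was 0.0017 in the authors' deposited table and 0.0083 with scaling to the cardiomyocyte markers. Atp5a1, for the alpha subunit, had 7.73, 7.44 and 7.83 on the controls and 8.03, 7.81 and 8.21 on the antagomir arrays, with control array 3 just above antagomir array 2 (0.35, SE 0.179). Atp5e, for the epsilon subunit of the central stalk, had 8.57, 8.10 and 8.66 on the controls and 8.88, 8.81 and 8.73 on the antagomir arrays, without overlap (0.36, SE 0.187). Atp5d, for the delta subunit beside it, gave 0.38 without overlap. Atp5c1, for the gamma subunit that turns in the head, gave the smallest value of the complex, 0.13, and its 2 probes ran from 0.13 to 0.39.

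The peripheral stalk holds the head still while the ring turns. Atp5h, for stalk subunit d, had 8.19, 8.03 and 8.34 on the controls and 8.52, 8.40 and 8.49 on the antagomir arrays. All antagomir arrays were above all controls (0.29, SE 0.142, limma unadjusted p = 0.0902, adjusted p = 0.691). Atp5j, for coupling factor 6, had 7.12, 6.74 and 7.20 on the controls and 7.42, 7.25 and 7.36 on the antagomir arrays, without overlap (0.32, SE 0.169). Atp5pb, listed on the array as Atp5f1, gave 0.40 without overlap, and Atp5o gave 0.26 with overlap.

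The c ring and the other membrane subunits gave values of the same order. Atp5g1 stood at 8.49, 8.31 and 8.53 on the controls and 8.78, 8.62 and 8.66 on the antagomir arrays, without overlap (0.24, SE 0.136). Atp5g2 and Atp5g3 overlapped between groups, at 0.35 (SE 0.209) and 0.23 (SE 0.194). Atp5j2, for subunit f, had the smallest p of the complex, with 8.05, 7.55 and 8.15 on the controls and 8.38, 8.36 and 8.27 on the antagomir arrays. Here the groups did not overlap and the log2 fold change was 0.42 (1.34-fold, SE 0.195, limma unadjusted p = 0.0747, adjusted p = 0.691), although its 2 probes ran from 0.24 to 0.42. Atp5k, Atp5mpl and Atp5md, small subunits of the membrane part, gave 0.31, 0.29 and 0.27. Atp5l, for subunit g, was an exception in its order, with control array 1 at 8.48 above all antagomir arrays (8.40, 8.31 and 8.39), and gave 0.18, while its 6 probes ran from 0.18 to 0.28. The table of genes lists 15 pseudogenes named after 8 of these genes, 4 of them after Atp5k, 3 after Cycs and 2 each after Uqcrh and Atp5l, and signal from their transcripts on the same probes cannot be told apart.

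Differences among the genes that share a name without being subunits were not tested. Dmac2l gave 0.41 (SE 0.199) without overlap, Dmac2 0.21 (SE 0.194), Cox7a2l 0.15 (SE 0.142) and Emc8 0.07 (SE 0.140). Atpif1, which encodes the inhibitor of ATP synthase and lies outside the naming rule, had 7.77, 7.73 and 7.98 on the controls and 7.96, 8.04 and 7.81 on the antagomir arrays. Its groups overlapped, with a log2 fold change of 0.11 (SE 0.144), and it was -0.09 under quantile scaling.

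The rest of the respiratory chain gave medians like those of the 3 complexes, with signs that turned under scaling by the array median as theirs did. All 37 tested complex I genes were higher (median log2 fold change 0.35), with groups that did not overlap for 20. Groups did not overlap for 8.78% of all genes and 32.0% of those with a mean level of at least 7. Of the complex I genes, 1 had an unadjusted p under 0.05 in limma, a share near the 3.05% of all genes. That gene was Ndufb2, an accessory subunit, at 7.29, 7.21 and 7.62 on the controls and 7.78, 7.93 and 7.81 on the antagomir arrays, all of these above the controls (0.46, SE 0.16, limma unadjusted p = 0.0276, adjusted p = 0.663). Ndufs6 and Ndufs5, for other accessory subunits, gave 0.41 and 0.36. The 4 genes of complex II, succinate dehydrogenase, were higher with a median of 0.35 (Sdhd 0.35, Sdha 0.35 and Sdhc 0.38). Of the transcripts of mitochondrial DNA, 12 were tested and 12 were higher, with a median of 0.25 and groups without overlap for 2, where 8.78% of all genes and 32.0% of those with a mean level of at least 7 had none. COX1, the catalytic subunit of complex IV, had 8.94, 8.72 and 8.99 on the controls and 9.29, 9.01 and 9.22 on the antagomir arrays (0.29, SE 0.152), and ND4L and ND4 of complex I gave 0.30 and 0.27. Scaled to the cardiomyocyte markers, the mitochondrial transcripts had a median of 0.016.

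Assembly factors and regulators were mostly higher as well, with medians below 0 under scaling by the array median, and 0 of them passed the adjusted threshold. For complex III assembly 6 of 6 were higher (median 0.22), led by Lyrm7, a chaperone of the Rieske protein, at -2.97, -2.90 and -2.80 on the controls and -2.67, -2.51 and -2.08 on the antagomir arrays. These did not overlap (0.47, SE 0.191, limma unadjusted p = 0.0477, adjusted p = 0.687). Ttc19 and Uqcc2 gave 0.37 and 0.26. For complex IV assembly 25 of 26 were higher (median 0.20), among them Cox10, which makes haem O (0.58, SE 0.251), Sco1, a copper chaperone (0.30, SE 0.134), and Ndufa4, now counted as a complex IV subunit (0.42, SE 0.177). For ATP synthase assembly 4 of 4 were higher (median 0.39), with Tmem70 at 0.41, Atpaf1 at 0.44 and Tmem242 at 0.36. Among 14 regulators of respiration 13 were higher (median 0.25). Esrra, the oestrogen-related receptor alpha, gave 0.41 (SE 0.216), Tfam, which packages mitochondrial DNA, 0.35 (SE 0.202) and Tfb1m 0.27 (SE 0.166). Chosen after their values were seen, as factors whose motifs were searched in the promoters, Nrf1 gave 0.027, Yy1 0.072 and Gabpa 0.16, and Gabpb1, which encodes the partner of Gabpa, was the single lower one at -0.079.

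**Figure D4:**
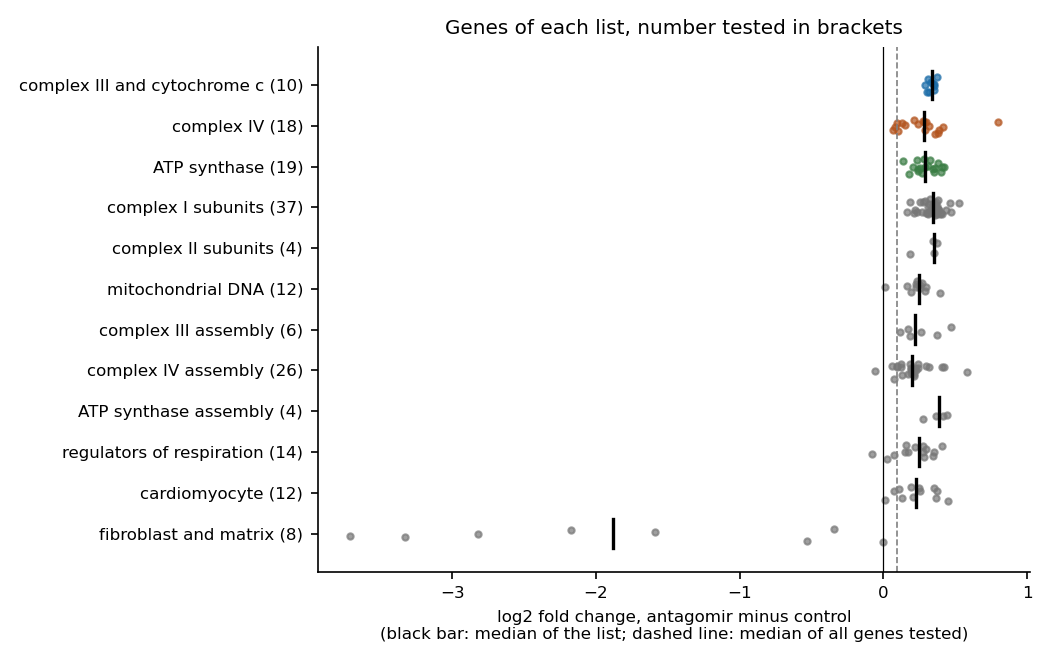
Log2 fold change (antagomir minus control, horizontal axis) of every tested gene of the 3 complexes, of 7 other lists of the respiratory system and of 2 marker lists, with the number tested in brackets, a black bar at each median and a dashed line at the median of all genes (0.09). Medians of the respiratory lists lie between 0.20 and 0.39 (all below 0 under scaling by the array median), that of the cardiomyocyte markers at 0.22 and that of the fibroblast and matrix markers at -1.88.

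No setting put a gene of the 3 complexes past the adjusted threshold. With a variance trend and robust moderation in limma, 18 of the 47 had an unadjusted p under 0.05, where 3.12% of all genes were higher at that level. Of the 47, 38 had a mean level of at least 7, and the share among all genes that bright was not counted in this setting. With this trend 0 of the 47 passed the adjusted threshold (lowest limma adjusted p = 0.499). The slide row of an array could be set as a block, but control arrays 1 and 2 alone lie in row 1, which leaves control array 3 as the single control beside the antagomir arrays in row 2. The median of the 47 was then 0.12, with 44 higher, against 0.02 for all genes.

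**Figure D5:**
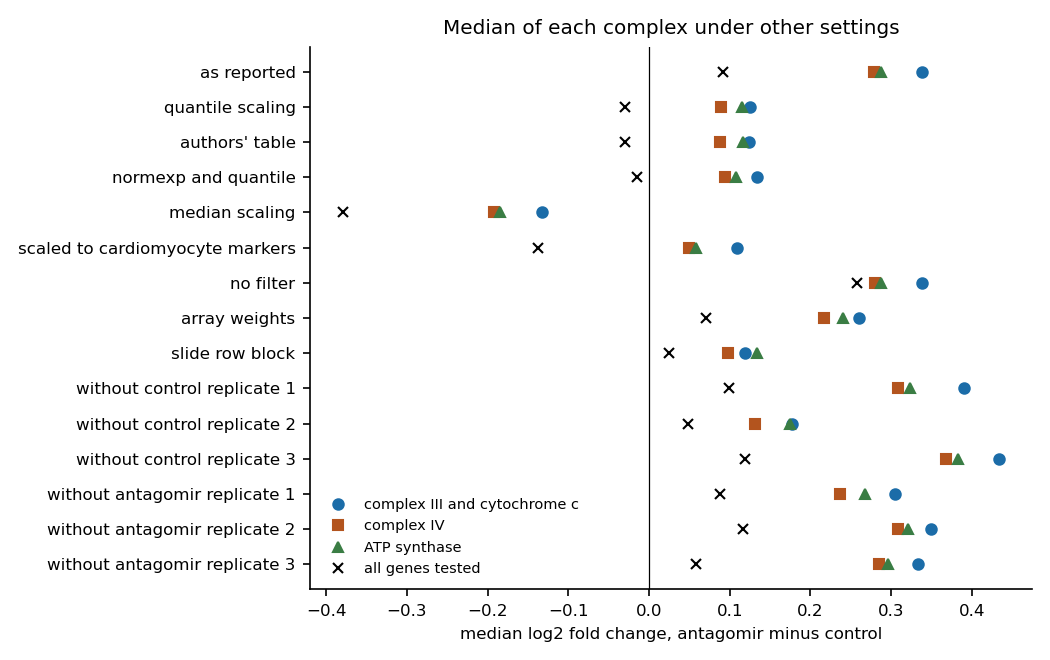
Median log2 fold change (antagomir minus control, horizontal axis) of each complex and of all genes tested (crosses), as reported and under other settings. The medians of the complexes lie right of the crosses in every setting shown, below 0 under median scaling, and nearest to 0 from above when the arrays are scaled to cardiomyocyte markers.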

How the data were processed

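Agilent Feature Extraction 10.7.1.1 read the 1-colour Cy3 arrays, per the file headers and the submitters' processing notes, and its deposited output gives each spot's processed signal as an intensity, corrected for background within the array. Their flags for outliers and for signals above background are other values, 0 or 1 per spot, per the file headers. The authors' deposited table holds normalised log2 values. Control spots and outlier spots were left out, spots of a probe were averaged on the log2 scale, and each array was scaled to its 75th percentile. The probe with the highest mean stood for its gene. Names come from a RefSeq table (GRCm38.p6) by accession, symbol or synonym, and positions of probes are mm9, per the file headers. The antagomir and control groups were set against each other in limma 3.58.1 (R 4.3.3) over all genes (two-sided, Benjamini-Hochberg adjusted p under 0.05). Other steps used Python 3.11.15, pandas 2.3.3, numpy 2.4.6, scipy 1.17.1 and matplotlib 3.10.9. The number of arrays limits the precision: in data simulated for this comparison over 22991 genes, 20.6% of 2-fold changes and 63.4% of 4-fold changes were called. Genes were drawn independently there, without shifts that genes of an array share. Changes smaller than 2-fold were not simulated, so these rates do not cover differences of the size found for the 3 complexes.

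Named genes are the 5 subunits of each set with the smallest p, members of isoform pairs, Cycs, Cyc1, Uqcrfs1, Atp5b, Atp5a1, the inhibitor, genes not tested, and 3 genes of each other list; others are given by value only. The members and lists were chosen with earlier results of these data known. Settings tried were quantile scaling, scaling by the median, normexp background correction with an offset of 50 followed by quantile scaling, the authors' table, other filters, other uses of probes, a variance trend, array weights, blocks and each array left out in turn.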

Additional observations from a re-analysis of the deposited data

How the results depend on the processing

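Values are median log2 fold changes of a list, log2 fold changes of a gene or shifts of an isoform pair, antagomir minus control, and the cause of a move was not tested unless stated. Scaling by the array median shifted every gene by the same amount, which made the medians negative, with complex III and cytochrome c at -0.13, complex IV at -0.19, ATP synthase at -0.18, complex I at -0.13, complex II at -0.12, mitochondrial DNA at -0.23, complex III assembly at -0.25, complex IV assembly at -0.27, ATP synthase assembly at -0.0819 and regulators of respiration at -0.23. It also put below 0 Atp5a1 at -0.12, Atp5b at -0.23, Atp5e at -0.11, Atp5g1 at -0.23, Atp5g2 at -0.12, Atp5g3 at -0.24, Atp5h at -0.18, Atp5j at -0.15, Atp5j2 at -0.0524, Cox4i1 at -0.18, Cox4i2 at -0.37, Cox5a at -0.0909, Cox5b at -0.0856, Cox6a1 at -0.35, Cox6a2 at -0.25, Cox6b1 at -0.19, Cox7a1 at -0.0591, Cox7a2 at -0.19, Cox7b at -0.16, Cox7b2 at -0.39, Cox8a at -0.37, Cox8b at -0.18, Cyc1 at -0.16, Cycs at -0.13, Uqcr10 at -0.15, Uqcr11 at -0.12, Uqcrfs1 at -0.12, Uqcrq at -0.12, Atpaf1 at -0.028, Atpif1 at -0.36, COX1 at -0.18, Esrra at -0.0653, ND4 at -0.20, ND4L at -0.17, Ndufa4 at -0.0485, Ndufb2 at -0.00908, Ndufs5 at -0.11, Ndufs6 at -0.063, Sco1 at -0.17, Sdha at -0.13, Sdhc at -0.0957, Sdhd at -0.12, Tfam at -0.12, Tfb1m at -0.20, Tmem242 at -0.11, Tmem70 at -0.0566, Ttc19 at -0.10 and Uqcc2 at -0.21. Quantile scaling gave complex III and cytochrome c at 0.13, mitochondrial DNA at 0.0305 and Cox4i2 minus Cox4i1 at 0.084, and put below 0 Cox6a1 at -0.0967, Cox6a2 at -0.036, Cox7b2 at -0.82, Cox8a at -0.062 and Atpif1 at -0.0895. The authors' deposited table gave complex III and cytochrome c at 0.12, mitochondrial DNA at 0.0329 and Cox4i2 minus Cox4i1 at 0.0772, and put below 0 Cox6a1 at -0.0962, Cox6a2 at -0.0235, Cox7b2 at -0.82, Cox8a at -0.0612 and Atpif1 at -0.0889. Normexp correction with quantile scaling gave ATP synthase at 0.11, mitochondrial DNA at 0.0511, Cox4i2 minus Cox4i1 at 0.046 and Atp5g1 minus Atp5g3 at -0.0325, and put below 0 Atp5g1 at -0.00646, Cox6a1 at -0.0873, Cox6a2 at -0.0432, Cox7b2 at -0.14, Cox8a at -0.0539 and Atpif1 at -0.0781. Scaling to cardiomyocyte markers, chosen after the data were seen, gave complex III and cytochrome c at 0.11, complex IV at 0.0499, ATP synthase at 0.0576, complex I at 0.12, mitochondrial DNA at 0.0159, complex III assembly at -0.00711, complex IV assembly at -0.0319 and regulators of respiration at 0.0167, and put below 0 Cox4i2 at -0.13, Cox6a1 at -0.10, Cox6a2 at -0.0131, Cox7b2 at -0.15, Cox8a at -0.13 and Atpif1 at -0.12. The slide row as a block gave complex III and cytochrome c at 0.12, complex I at 0.12, complex II at 0.0703, complex IV assembly at 0.0297, ATP synthase assembly at 0.14 and regulators of respiration at 0.0542, and put below 0 Atp5g3 at -0.0127, Cox4i2 at -0.16, Cox7b2 at -0.60 and Atpif1 at -0.0453. Array weights put below 0 Cox4i2 at -0.0497 and Cox7b2 at -0.12.

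With each array left out in turn, the median ran from 0.18 to 0.43 for complex III with cytochrome c, 0.13 to 0.37 for complex IV, 0.18 to 0.38 for ATP synthase, 0.18 to 0.45 for complex I, 0.12 to 0.46 for complex II and 0.17 to 0.32 for mitochondrial DNA. For assembly factors it ran from 0.14 to 0.31 (complex III), 0.0687 to 0.28 (complex IV) and 0.19 to 0.52 (ATP synthase), and for regulators from 0.11 to 0.31. Isoform pairs ran from -0.0424 to 0.24 for Cox6a2 minus Cox6a1, 0.0831 to 0.18 for Cox7a1 minus Cox7a2, 0.10 to 0.24 for Cox8b minus Cox8a, -0.37 to -0.00982 for Cox4i2 minus Cox4i1, 0.31 to 0.78 for Cox6b2 minus Cox6b1, -0.54 to -0.000602 for Cox7b2 minus Cox7b, -0.071 to 0.12 for Atp5g1 minus Atp5g3 and 0.0567 to 0.19 for Atp5g2 minus Atp5g3. Single named genes whose sign turned were Cox4i2 (-0.18 to 0.30), Cox6a1 (-0.0217 to 0.25) and Cox7b2 (-0.35 to 0.43).

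The 3 genes past the adjusted threshold among all genes became 199 under scaling by the median, 8 with array weights, 6 with every probe by itself, 1 under quantile scaling, the authors' table or no filter, 0 with normexp correction, the slide row as a block or a filter on all 6 arrays, and 0 to 3 with an array left out. Under scaling by the median, limma gave every gene the same standard error, 0.600, where it ran from 0.117 to 2.72 as reported, so the 199 calls, and the 0 among the 47 genes, are not comparable with those of the other settings. Same-numbered arrays were not taken as pairs: the deviations from their group means correlated at 0.222, 0.142 and -0.0486. The replicate number as a block left 0 genes past the threshold in limma (1159 were higher at an unadjusted p under 0.05), and the lowest adjusted p among the 47 genes was 0.432.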
